A study of Homo sapiens with 18 samples.

Results

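HT-29 iZEB1 cells, a form of the human colorectal cancer line HT-29 that carries a ZEB1 gene inducible by doxycycline (DOX), were compared with and without DOX in the vehicle DMSO. The comparison used the 3 libraries labelled with DOX and DMSO and the 3 labelled without DOX and with DMSO, 6 of the 18 RNA sequencing libraries of the series, chosen by these labels alone, and covered all genes. The other 12 libraries held HT-29 iZEB1 cells given the TGF-β receptor inhibitor RepSox with or without DOX, and SW620 colorectal cancer cells in DMSO or RepSox. Both groups compared carry the inducible construct and both had DMSO, so that DOX is the labelled difference. DOX was given at 1 µg/ml. Its duration is 24 h in the treatment protocol of the labels and 48 h in the series' design text. The sources used here give neither the promoter and vector of the inducible gene nor whether the line is 1 clone. HT-29 cells without the inducible gene but with DOX were not analysed here, so effects of the antibiotic itself and of ZEB1 cannot be told apart. The labels do not say that the replicates are separate cultures. The p-values therefore take in no more than the differences between these libraries, and those may be technical.

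ZEB1 is a zinc-finger transcription factor that binds E-box motifs through clusters of zinc fingers at either end of the protein and recruits co-repressors such as CTBP1 and CTBP2. It is best known for repressing genes of epithelial cells, among them the E-cadherin gene CDH1, in the epithelial-mesenchymal transition (EMT), in which cells lose junctions and apical-basal polarity. ZEB1 and the microRNAs of the miR-200 family repress each other, and HT-29 is used as a largely epithelial colorectal line.

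The 6 libraries held 36511596 to 39792807 counts each. ZEB1, the induced gene, stood at 7.76, 7.23 and 10.2 CPM without DOX and 366, 379.7 and 370.1 CPM with DOX, where CPM are counts per 1000000 after scaling between libraries. The 3 libraries with DOX were all above the 3 without, and the fitted change was 44.3-fold (log2 5.47, SE 0.10, adjusted p = 2.4e-17, edgeR's quasi-likelihood test). Transcripts of the inducible and of the cells' own ZEB1 are counted together. On the first principal component of the 6 libraries, which carried 63.9% of their variance, those without DOX lay from -41.9 to -38.2 and those with DOX from 38.7 to 41.0. The second component carried 11.3% and set DOX replicate 2 (27.7) apart from DOX replicates 1 (-15.8) and 3 (-10.5). That library also differed most from its group in a count comparison (chi-square per degree of freedom 32.6 and 42.6 against replicates 1 and 3, which differed by 8.95) and had the lowest share of mitochondrially encoded counts, 2.98% against 4.31% to 5.72% in the other 5. DOX libraries held counts for 23828 to 24488 genes and the others for 23256 to 23580.

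A gene was called when its adjusted p fell below 0.05. Of 16978 genes tested, 6853 were called (40.4%), 3265 of them higher with DOX (19.2%) and 3588 lower (21.1%). Scaling by library totals alone, which moved the median log2 change of all genes by 0.08, put 59.5% of its 7098 calls on the higher side against 47.6% here. Most calls were small: 80.3% were under 2-fold, and of the 1350 genes changed at least 2-fold (7.95%) 685 were higher (4.03%) and 665 lower (3.92%). At least 4-fold, 138 genes were higher (0.813%) and 188 lower (1.11%). The median log2 change over all genes tested was 0.002, with quartiles of -0.26 and 0.29. These shares are the background against which the counts of each gene group are read. Counts near these shares are not particular to a group. The groups were chosen with earlier results of these data known, so a count above these shares is not independent support.

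The 15 largest rises and 15 largest falls were taken from called genes whose higher group averaged 5 CPM or more and whose libraries did not overlap (a separation that 48.4% of all genes tested show). They included secreted, cytoskeletal and membrane proteins. ATOH8, a basic helix-loop-helix transcription factor, stood at 0.223, 0.166 and 0.221 CPM without DOX and 9.32, 11.97 and 8.89 CPM with DOX. ANGPTL2, a secreted angiopoietin-like protein, stood at 0.946, 0.637 and 0.524 CPM without DOX and 15.4, 19.8 and 16.2 CPM with DOX. Both were below 1 CPM in every library without DOX, and DOX replicate 2 was the highest for both. CYP27A1, the mitochondrial sterol 27-hydroxylase (chromosome 2, 218781749 to 218815293), stood at 1.67, 1.27 and 1.08 CPM without DOX and 8.496, 11.9 and 8.33 CPM with DOX and rose 7.13-fold (log2 2.83, SE 0.22, adjusted p = 6.54e-09). RAMP1, an accessory subunit of the receptor for calcitonin gene-related peptide (chromosome 2, 237858893 to 237912114), stood at 2.45, 1.47 and 1.601 CPM without DOX and 10.6, 14.3 and 10.04 CPM with DOX. For CYP27A1 and RAMP1 the groups were far apart beside a replicate spread of at most 2.31 CPM (SD). MAP1A, a microtubule-associated protein, rose 6.94-fold, the sialyltransferase gene ST6GALNAC2 6.44-fold, and MEIS3, a homeobox transcription factor gene, 6.305-fold.

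Among the largest falls, NECTIN4, a cell adhesion molecule of the nectin family (chromosome 1, 161070995 to 161089599), stood at 7.597, 6.73 and 6.32 CPM without DOX and 0.6497, 0.606 and 0.482 CPM with DOX. VGLL1, a cofactor of TEAD transcription factors (chromosome X, 136532152 to 136556807), stood at 12.02, 13.5 and 12.6 CPM without DOX and 1.399, 1.19 and 1.28 CPM with DOX. In both, the highest DOX library lay far under the lowest library without DOX, and the fitted falls were 11.8-fold for NECTIN4 and 9.84-fold for VGLL1. ITGB6, the integrin β6 subunit that pairs with αv and can activate latent TGF-β (chromosome 2, 160099666 to 160200313), stood at 32.8, 29.6 and 32.5 CPM without DOX and 3.798, 2.73 and 3.13 CPM with DOX. C1orf210, which encodes a membrane protein, stood at 19.3, 19.4 and 19.7 CPM without DOX and 0.9495, 1.339 and 1.52 CPM with DOX, again without overlap. The mucin gene MUC20 was 10.7-fold lower and its near-identical copy MUC20P1 11.3-fold lower, and how reads were divided between them is uncertain.

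**Figure D1:**
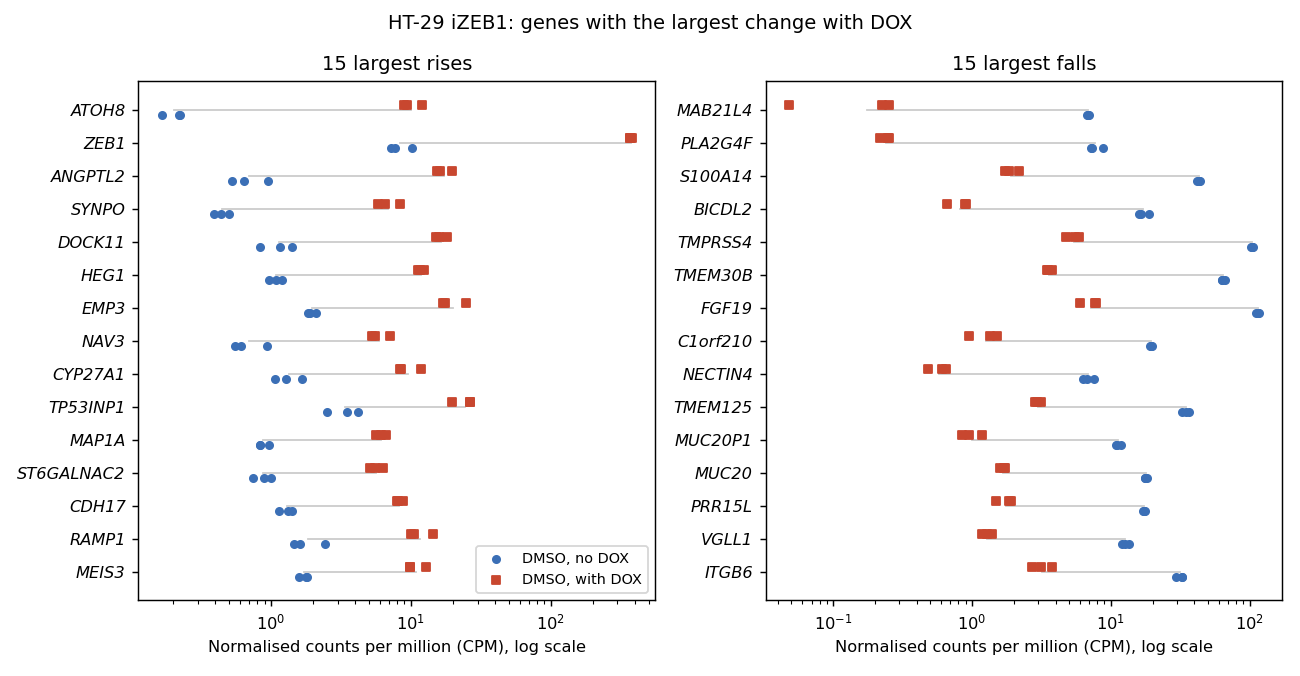
Normalised counts (CPM, log axis) of the 15 genes with the largest rise (left) and the 15 with the largest fall (right) with DOX in HT-29 iZEB1 cells in DMSO. Each point is 1 library (circles without DOX, squares with DOX, 3 each), grey lines join the group means, and no gene has overlapping groups because the choice of genes required it.

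Genes of cell-cell junctions fell for the most part, with exceptions in the same complexes. Adherens junctions join neighbouring cells through cadherins and nectins that are tied to actin by catenins. Of 12 tested adherens junction genes 6 fell and 2 rose (median log2 -0.15). CDH1 stood at 457, 446 and 478 CPM without DOX and 225, 226 and 235 CPM with DOX, without overlap and 2.02-fold lower. CDH3, the P-cadherin gene, stood at 4.98, 3.96 and 3.73 CPM without DOX and 0.6997, 0.758 and 1.18 CPM with DOX, and its fall was larger than that of CDH1 on the log2 scale (-2.25 against -1.01). JUP, which encodes plakoglobin, was 1.36-fold lower. Both genes that rose are catenins: CTNND1, which encodes the p120 catenin that binds cadherin tails, went up 1.304-fold and CTNNB1, the β-catenin gene, 1.14-fold (CTNNB1 named after its value was seen). The call of CTNNB1 was lost without DOX-free replicate 1, DOX-free replicate 2 or DOX replicate 2. CTNNA1, which encodes α-catenin, had a log2 change of -0.05 (adjusted p = 0.547).

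Tight junctions seal the space between cells near the apical side. Here 11 of 19 tested genes fell and 5 rose (median log2 -0.55). MARVELD3, a membrane protein of tight junctions, stood at 40.2, 40.96 and 37.8 CPM without DOX and 4.97, 5.58 and 5.47 CPM with DOX. CLDN7, a claudin found along the lateral membrane, stood at 128, 131 and 122 CPM without DOX and 38.8, 41.1 and 41.3 CPM with DOX. ILDR1, an angulin of contacts between 3 cells, stood at 9.63, 8.47 and 9.94 CPM without DOX and 1.57, 1.04 and 1.73 CPM with DOX. In all of these the groups were apart, and the falls were 7.42-fold, 3.15-fold and 6.43-fold. F11R, the JAM-A gene, was 2.004-fold lower and MARVELD2, the tricellulin gene, 1.92-fold lower. The 5 that rose, named after their values were seen, were CGNL1, the scaffold gene TJP1 (ZO-1) and the claudin genes CLDN1, CLDN2 and CLDN12. TJP1 stood at 229, 237 and 251 CPM without DOX and 335, 315 and 336 CPM with DOX and CLDN1 at 47.1, 46.05 and 51.1 CPM without DOX and 65.6, 65.96 and 63.7 CPM with DOX, both without overlap. Without DOX-free replicate 2, CGNL1 and CLDN12 no longer passed.

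Desmosomes anchor keratin filaments at cell contacts. Of 10 tested desmosome genes 7 fell and 1 rose (median log2 -0.61; 2 rises with library totals alone). The plakin gene PPL, which encodes periplakin, stood at 102, 106 and 95.3 CPM without DOX and 26.5, 30.2 and 27.2 CPM with DOX, and PKP3, the plakophilin 3 gene, at 113, 118 and 98.5 CPM without DOX and 28.1, 33.4 and 32.5 CPM with DOX. Both fell without overlap, by -1.85 and -1.81 on the log2 scale, and EVPL, which encodes envoplakin, was 2.23-fold lower. DSP, which encodes desmoplakin, was 1.44-fold lower. The desmocollin gene DSC3, the 1 that rose, went from 0.166 ± 0.11 to 0.558 ± 0.19 CPM (SD, n = 3), and its call was lost without DOX-free replicate 1 or 2 or DOX replicate 3 (named after its value was seen).

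Keratins showed the same direction. Of 10 tested epithelial keratin genes 8 fell and none rose (median log2 -0.96). KRT19 stood at 533, 539 and 478 CPM without DOX and 208, 252 and 214 CPM with DOX. KRT13, a keratin of stratified epithelia, stood at 25.02, 23.8 and 23.9 CPM without DOX and 8.22, 8.23 and 8.599 CPM with DOX. The main keratin pair of simple epithelia fell in near-equal measure, KRT8 1.93-fold and KRT18 1.97-fold. In this list KRT7 (log2 -0.11, adjusted p = 0.808) and KRT17 (log2 0.06, adjusted p = 0.911) did not pass, both near 1 CPM.

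The largest group of epithelial falls was in a list named apical polarity and trafficking. It covers the Crumbs, PAR and Scribble polarity proteins and the adaptors and small GTPases that carry cargo to the apical membrane. The list also holds genes outside these groups, such as TMEM30B, BSPRY and TMEM125, so its counts do not speak for the polarity complexes alone. Of 23 tested genes 20 fell and 1 rose, 14 of the 20 at least 2-fold (background 3.92%), and the median log2 change was -1.70. This list, like the others, was chosen with earlier results of these data known, so the count is a description and not a test. TMEM30B, a subunit of lipid flippases, stood at 66.2, 63.4 and 63.3 CPM without DOX and 3.498, 3.54 and 3.78 CPM with DOX. AP1M2, the µ subunit of the epithelial clathrin adaptor AP-1B, stood at 133, 138 and 124 CPM without DOX and 18.2, 17.99 and 19.4 CPM with DOX. CRB3, the Crumbs protein of apical membranes, stood at 22.5, 21.2 and 19.6 CPM without DOX and 4.15, 3.26 and 4.19 CPM with DOX. Every library with DOX lay far under every library without it for these 3 genes. BSPRY, a B-box and SPRY domain gene, stood at 34.5, 35.3 and 36.5 CPM without DOX and 3.12, 3.84 and 3.85 CPM with DOX. BICDL2, a dynein adaptor, fell 20.9-fold and TMEM125, which encodes a membrane protein, 11.7-fold. The polarity kinase gene PRKCI (log2 -0.03, adjusted p = 0.809) and the PAR3 gene PARD3 (log2 0.08, adjusted p = 0.31; higher with library totals alone, adjusted p = 0.0406) did not pass. SYTL2, an effector of RAB27, was the 1 gene of the list that rose, from 52.03 ± 3.9 to 83.2 ± 5.1 CPM (SD, n = 3) (named after its value was seen).

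Membrane-bound serine proteases and their inhibitors form a cascade on epithelial surfaces. Of 9 tested genes of this group 8 fell and none rose (median log2 -1.71). TMPRSS4, a transmembrane serine protease, stood at 106, 105 and 102 CPM without DOX and 4.798, 5.89 and 5.52 CPM with DOX. PRSS8, which encodes prostasin, stood at 71.9, 66.8 and 62.2 CPM without DOX and 9.37, 10.7 and 11.1 CPM with DOX. ST14, which encodes matriptase, a protease that activates prostasin, stood at 688, 724 and 643 CPM without DOX and 206, 288 and 236 CPM with DOX. Each was without overlap and their falls were 19.3-fold, 6.43-fold and 2.82-fold. The cell surface glycoprotein gene EPCAM, which is held in the same list because its product is a substrate of matriptase, was 3.28-fold lower. TMPRSS2 did not pass (log2 -0.15, adjusted p = 0.147).

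**Figure D2:**
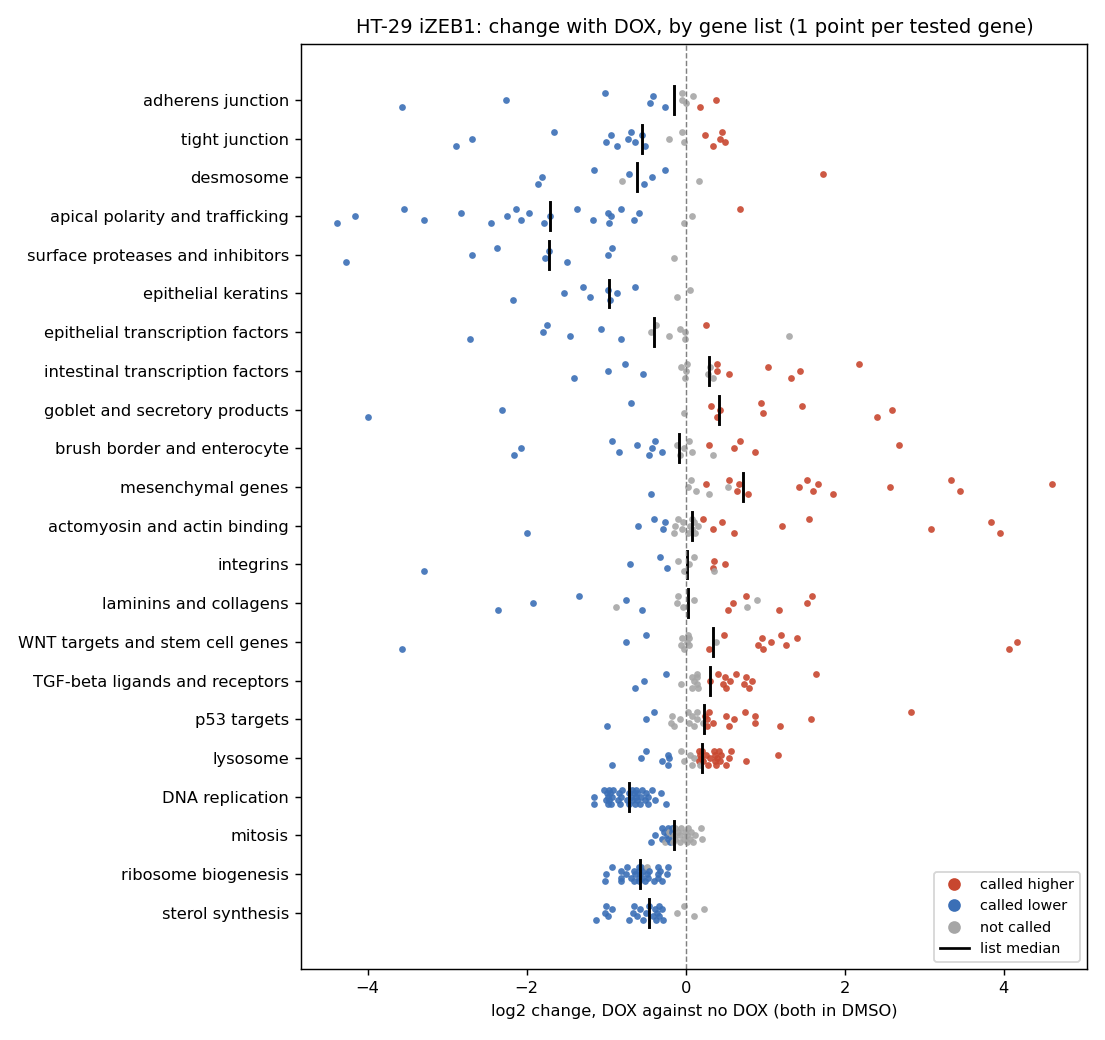
Log2 change with DOX of every tested gene of 22 of the gene lists, 1 point per gene, red for genes called higher, blue for called lower and grey for not called, with a black bar at the list median. The apical polarity and trafficking list and the surface proteases lie furthest to the left (medians -1.70 and -1.71). DNA replication and ribosome biogenesis genes form narrow groups left of 0, and laminins and collagens spread to both sides.

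Promoter sequences of the genes that fell were examined because ZEB1 binds E-boxes. The motif CACCTG was searched on both strands (CAGGTG as read on the other strand) from 250 bases before to 50 after the transcription start in RefSeq promoters of GRCh38.p14. Genes with 1 listed start were used, 7877 of the 16978 tested (46.4%). Promoters of 6 genes are printed to show where the motif lies in strong fallers, and beside them the gene with the largest rise. The fallers were taken from those at least 4-fold lower whose promoters hold the motif, in order of the number of matches. The stretch shown runs from 250 bases before to 30 after the start, 5′ to 3′ on the gene's strand, with the motif in capitals. CRB3 lies at chr19:6464021-6464300 (plus), TMEM30B at chr14:61281309-61281588 (minus), AP1M2 at chr19:10587283-10587562 (minus), C1orf210 at chr1:43285552-43285831 (minus), BSPRY at chr9:113349291-113349570 (plus) and ATOH8 at chr2:85753741-85754020 (plus).
CRB3: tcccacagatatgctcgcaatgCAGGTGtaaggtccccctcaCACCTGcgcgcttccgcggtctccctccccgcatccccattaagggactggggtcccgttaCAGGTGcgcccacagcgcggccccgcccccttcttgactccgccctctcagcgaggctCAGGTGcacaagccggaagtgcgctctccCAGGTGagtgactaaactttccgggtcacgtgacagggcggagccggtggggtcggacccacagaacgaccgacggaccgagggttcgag
TMEM30B: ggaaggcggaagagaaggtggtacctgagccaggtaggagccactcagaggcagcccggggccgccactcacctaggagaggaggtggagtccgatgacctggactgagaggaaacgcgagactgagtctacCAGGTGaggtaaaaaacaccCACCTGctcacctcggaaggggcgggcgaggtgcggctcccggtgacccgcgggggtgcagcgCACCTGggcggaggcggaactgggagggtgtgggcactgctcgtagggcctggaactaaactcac
AP1M2: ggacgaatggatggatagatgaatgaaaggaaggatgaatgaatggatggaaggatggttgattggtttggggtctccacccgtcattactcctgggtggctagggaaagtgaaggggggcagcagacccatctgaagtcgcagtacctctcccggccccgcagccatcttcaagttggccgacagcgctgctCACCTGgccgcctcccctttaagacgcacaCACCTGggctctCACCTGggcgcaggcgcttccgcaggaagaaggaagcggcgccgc
C1orf210: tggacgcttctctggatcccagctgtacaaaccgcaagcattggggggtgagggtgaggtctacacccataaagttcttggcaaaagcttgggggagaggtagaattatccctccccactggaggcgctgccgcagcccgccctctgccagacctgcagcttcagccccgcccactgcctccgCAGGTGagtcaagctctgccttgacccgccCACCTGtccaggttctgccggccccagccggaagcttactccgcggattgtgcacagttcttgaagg
BSPRY: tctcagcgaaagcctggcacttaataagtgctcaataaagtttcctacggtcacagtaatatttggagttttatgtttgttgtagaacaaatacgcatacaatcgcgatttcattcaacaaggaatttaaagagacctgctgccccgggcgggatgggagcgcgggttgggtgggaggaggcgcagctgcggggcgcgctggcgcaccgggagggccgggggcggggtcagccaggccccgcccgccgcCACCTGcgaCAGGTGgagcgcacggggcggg
ATOH8: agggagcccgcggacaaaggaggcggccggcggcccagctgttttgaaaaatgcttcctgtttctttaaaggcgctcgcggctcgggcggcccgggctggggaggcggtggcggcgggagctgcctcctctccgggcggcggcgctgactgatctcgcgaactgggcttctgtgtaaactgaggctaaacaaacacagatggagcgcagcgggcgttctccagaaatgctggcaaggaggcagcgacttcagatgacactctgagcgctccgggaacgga

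CRB3 held 5 matches, all before the start, from position -228 to -55. TMEM30B held 4, of which the last (28 to 33) runs past the printed stretch, and the AP1M2 promoter held 3 between -57 and -10. Both BSPRY matches lay at the start itself, from -1 to 14. ATOH8, the gene with the largest rise, held none. The fallers shown were chosen for holding the motif, so their counts cannot be set against that of ATOH8. These are matches of letters and say nothing of binding. Among the 16 named or junction, polarity, splicing and transcription factor genes that fell at least 4-fold and had 1 listed start, 14 held at least 1 match. The 2 without were TMEM125 and SYTL1.

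Over all genes, the share of promoters with CACCTG followed the size of the fall. The motif stood in 20.8% of the promoters of all 22114 genes with 1 listed start in the RefSeq table, in 19.2% of promoters of genes tested and in 18.9% of those not called. It stood in 25.4% of promoters of genes called lower, in 48.4% of those at least 2-fold lower (138 of 285), in 61.2% of those at least 4-fold lower (49 of 80) and in 74.1% of those at least 8-fold lower (20 of 27). In promoters of genes called higher the share was 12.4%, and 10.8% in those at least 4-fold higher (7 of 65). The base composition of the strongest groups was alike, with 60.2% G and C in the promoters of genes at least 4-fold lower and 60.3% in those at least 4-fold higher, against 64.8% in all genes tested. In genes at least 4-fold lower, 80% of the matches (64 of 80) lay from 100 bases before to 50 after the start, against 43.7% (781 of 1789) over all genes tested. The related motif TACCTG, searched the same way, stood in 7.30% of promoters of genes tested, in 23.8% of those at least 4-fold lower and in 6.15% of those at least 4-fold higher. No test was run on these shares.

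**Figure D3:**
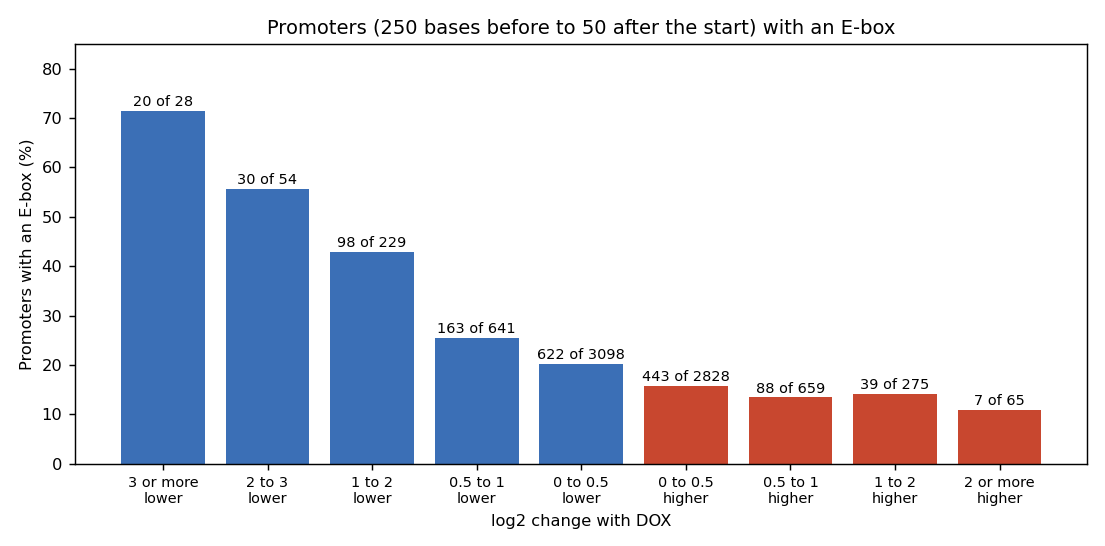
Share of promoters (percent, bars from 0) with at least 1 E-box of the searched form by log2 change with DOX, over genes with 1 listed start, with the number of genes over each bar. The share falls from 71.4% (20 of 28 genes) where the log2 change was 3 or more lower to 10.8% (7 of 65) where it was 2 or more higher; blue marks lower and red higher levels with DOX, called or not.

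ESRP1 and ESRP2, RNA-binding proteins that hold epithelial splicing patterns in place, both fell. ESRP1 stood at 323, 335 and 332 CPM without DOX and 74.1, 75.8 and 81.4 CPM with DOX. ESRP2 stood at 115, 112 and 110.4 CPM without DOX and 33.9, 39.3 and 42.5 CPM with DOX. The groups were apart for both, and RBM47, another regulator of epithelial splicing, was 1.33-fold lower. Of 5 tested splicing regulators that are known to be higher in mesenchymal cells, MBNL1 rose 1.68-fold, RBFOX2 rose 1.201-fold and PTBP1 was 1.25-fold lower. With the replicate block, with no low-count filter and without DOX-free replicate 2 or DOX replicate 1, 2 of these 5 fell.

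Some transcription factors that hold the epithelial state fell and others did not pass. Of 14 tested, 6 fell and 1 rose (median log2 -0.40). OVOL1, a zinc-finger repressor of mesenchymal genes, stood at 11.6, 12.2 and 11.4 CPM without DOX and 1.299, 1.69 and 2.34 CPM with DOX. GRHL2, a grainyhead factor that drives junction genes, stood at 112, 109.5 and 111 CPM without DOX and 33.1, 32.6 and 33.5 CPM with DOX. Both were lower in every DOX library than in any other, by 6.57-fold and 3.35-fold, and OVOL2 was 2.73-fold lower. In contrast, ELF3 (log2 -0.07, adjusted p = 0.371), EHF (log2 -0.01, adjusted p = 0.927) and KLF5 (log2 -0.00, adjusted p = 0.976), which are epithelial factors of the intestine, did not pass. KLF5 stood at 434, 415 and 455 CPM without DOX and 435, 427 and 439 CPM with DOX, with overlapping groups. TRPS1 was the gene that rose, 1.19-fold, and its call was lost without DOX-free replicate 1 or 2 or DOX replicate 1 (named after its value was seen).

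Of 9 tested EMT transcription factors 4 were called beside ZEB1: SOX4 rose 2.64-fold, ETS1 2.57-fold, SNAI1 fell 1.89-fold and the AP-1 subunit gene FOSL1 1.55-fold. SNAI2, TWIST1, TWIST2, PRRX1, FOXC2 and GSC had no counts in any of the 6 libraries, which allows up to 3 counts in each. Of 17 tested ZEB1 cofactors and turnover factors 4 rose and 4 fell (median log2 0.02). The acetyltransferase gene KAT2B, which encodes PCAF, went from 2.46 ± 0.15 to 6.01 ± 1.2 CPM (SD, n = 3), while the co-repressor genes CTBP1 (log2 -0.07, adjusted p = 0.478) and CTBP2 (log2 -0.08, adjusted p = 0.258) did not pass. SIAH2, a ubiquitin ligase that marks ZEB1 for breakdown, was 1.25-fold lower. The count of falls in this list was 2 with DESeq2 size factors, with no low-count filter and with the 6 libraries alone, and 1 when scaled by library totals alone. It was also 2 without DOX-free replicate 1, DOX-free replicate 2 or DOX replicate 3.

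Mature microRNAs were not measured, and the counts speak only for their host transcripts. Of 16 tested microRNA host genes 6 fell and none rose (median log2 -0.23), though 1 rose with library totals alone and without DOX-free replicate 1, DOX replicate 1 or DOX replicate 2. MIR200CHG, the host of miR-200c and miR-141, stood at 0.779, 1.55 and 0.966 CPM without DOX and 0.175, 0.0505 and 0.0723 CPM with DOX, 119 counts against 12 in all. MIR205HG, the host of miR-205, stood at 1.48, 2.52 and 2.401 CPM without DOX and 0.5497, 0.581 and 0.843 CPM with DOX, 231 counts against 80. Both were low but apart in every library, with log2 changes of -3.43 (adjusted p = 1.66e-05) and -1.69 (adjusted p = 2.07e-05). MIR17HG, the host of the miR-17 to miR-92 cluster, was 2.06-fold lower. The mature forms known to target ZEB1 are printed from RefSeq (GRCh38.p14) with the seed, bases 2 to 8, in capitals, and no 2 of the 3 share a seed.
hsa-miR-200c-3p: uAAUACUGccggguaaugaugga
hsa-miR-141-3p: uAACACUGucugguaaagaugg
hsa-miR-205-5p: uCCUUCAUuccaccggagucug

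Mesenchymal genes rose for the most part, and many of those named here started from low levels. The 25 genes of the list summed to 3841 to 4012 CPM without DOX and 4529 to 4845 CPM with DOX, so the list also holds abundant genes. Of 20 tested, 14 rose and 1 fell, 9 at least 2-fold higher (background 4.03%), and the median log2 change was 0.72. FN1, the fibronectin gene, stood at 0.807, 1.55 and 1.66 CPM without DOX and 3.698, 4.72 and 4.34 CPM with DOX. LGALS1, which encodes galectin-1, stood at 15.4, 14.1 and 11.2 CPM without DOX and 45.2, 55.9 and 45.5 CPM with DOX. CYBRD1, an iron reductase, stood at 2.95, 2.33 and 2.73 CPM without DOX and 17.6, 16.5 and 13.7 CPM with DOX. In these 3 genes every DOX library was above every other, with rises of 3.17-fold, 3.595-fold and 5.96-fold. EMP3, a tetraspan membrane protein, stood at 2.12, 1.91 and 1.85 CPM without DOX and 17.1, 24.9 and 17.6 CPM with DOX. HEG1, a membrane mucin-like receptor, stood at 1.08, 1.19 and 0.966 CPM without DOX and 11.3, 11.6 and 12.5 CPM with DOX. VIM, the vimentin gene, had few counts, 0.334, 0.166 and 0.442 CPM without DOX and 0.425, 1.11 and 1.01 CPM with DOX. Its groups overlapped, and its call (log2 1.43, adjusted p = 0.00838) was lost without DOX-free replicate 2 (log2 1.12, adjusted p = 0.0537). The genes CDH11 and SPARC had no counts in the 6 libraries. CAV2, the caveolin 2 gene, was the 1 that fell, 1.35-fold (named after its value was seen).

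Actin regulators held both extremes. Of 26 tested actomyosin and actin-binding genes 9 rose and 5 fell (median log2 0.08). SYNPO, an actin-binding protein of stress fibres, stood at 0.3896, 0.498 and 0.442 CPM without DOX and 6.57, 8.41 and 5.78 CPM with DOX. DOCK11, an exchange factor for CDC42, stood at 1.17, 0.831 and 1.41 CPM without DOX and 18.1, 15.1 and 15.8 CPM with DOX. Both were without overlap. MYLK, the myosin light chain kinase gene, rose 2.32-fold, while CORO1A, which encodes coronin 1A, was 3.99-fold lower, from 7.88 ± 0.57 to 1.97 ± 0.064 CPM (SD, n = 3).

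Matrix genes went in both directions, subunit by subunit. Laminins are trimers of α, β and γ chains, and laminin-332, a component of epithelial basement membranes, contains the products of LAMA3 and LAMB3. LAMB3 stood at 121, 119 and 108 CPM without DOX and 20.4, 23.8 and 23.4 CPM with DOX. LAMA3 stood at 28.2, 27.8 and 30.4 CPM without DOX and 19.3, 22.3 and 17.4 CPM with DOX. Both fell without overlap, LAMB3 by -2.36 and LAMA3 by -0.55 on the log2 scale. COL17A1, a hemidesmosomal collagen that binds this laminin, was 2.53-fold lower. The β and γ chains of other laminins rose: LAMB2 stood at 33.8, 28.6 and 31.2 CPM without DOX and 64.5, 72.2 and 73.5 CPM with DOX, LAMB1 at 69.6, 73.9 and 78.7 CPM without DOX and 121, 131 and 123 CPM with DOX and LAMC1 at 64.8, 69.8 and 70.3 CPM without DOX and 102, 104 and 91.3 CPM with DOX. LAMA3, LAMB1 and LAMC1 were named after their values were seen. COL6A1 rose 3.01-fold from a low level, while COL4A2 was 1.69-fold lower. In all, 6 of 18 tested laminin and collagen genes rose and 5 fell (median log2 0.03), beside background shares of 19.2% and 21.1%.

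Integrins, the receptors of these matrix proteins, also went in both directions. Of 12 tested, 3 rose and 4 fell (median log2 0.01), beside background shares of 19.2% and 21.1%. With scaling by library totals alone 4 rose and 3 fell. ITGB4 and ITGA6 form the α6β4 receptor of hemidesmosomes that binds laminin-332. ITGB4 stood at 289, 304 and 266 CPM without DOX and 158, 192 and 176 CPM with DOX and fell 1.63-fold, and ITGA6 fell 1.25-fold. The 3 that rose were ITGAV, from 154 ± 9.7 to 218 ± 18 CPM (SD, n = 3), ITGB8 (1.28-fold) and ITGB1 (1.27-fold), so that ITGB6 fell while its partner subunit ITGAV rose.

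Matrix proteases and their inhibitors rose in 7 of 24 and fell in 9 (median log2 -0.19), beside background shares of 19.2% and 21.1%. With scaling by library totals alone 9 rose and 8 fell. MMP14, a membrane-bound metalloprotease, stood at 6.93, 5.09 and 5.96 CPM without DOX and 13.6, 15.7 and 15.3 CPM with DOX. TIMP2, an inhibitor that also takes part in the activation of MMP2 by MMP14, stood at 28.6, 26.4 and 30.8 CPM without DOX and 70.8, 72.3 and 67.3 CPM with DOX. SERPINE2, a serine protease inhibitor, stood at 23.5, 23.8 and 23.6 CPM without DOX and 61.05, 62.9 and 60.3 CPM with DOX. All 3 were higher without overlap. SERPINB5, which encodes maspin, fell 5.7-fold, from 46.5 ± 3.2 to 8.16 ± 0.61 CPM (SD, n = 3), and PLAUR, the urokinase receptor gene, fell 2.04-fold.

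Genes of intestinal differentiation went in both directions. Tested genes of the goblet line, which makes mucus, and of other secretory products rose for the most part. Of 12 tested goblet and secretory genes 8 rose and 3 fell (median log2 0.42). ZG16, REG1A and CLCA1 of this list had no counts in the 6 libraries. TFF3, a trefoil peptide of goblet cells, stood at 2.09, 2.21 and 1.68 CPM without DOX and 10.2, 12.3 and 9.23 CPM with DOX. FCGBP, a mucus protein, stood at 2.12, 2.298 and 1.74 CPM without DOX and 12.7, 12 and 12.7 CPM with DOX. ATOH1, the transcription factor that starts the secretory lineage, stood at 1.002, 1.11 and 1.02 CPM without DOX and 4.52, 4.88 and 4.84 CPM with DOX. The DOX libraries were highest for all 3, with rises of 5.29-fold, 6.06-fold and 4.54-fold. MUC2, the main secreted intestinal mucin, stood at 0.863, 1.36 and 1.57 CPM without DOX and 2.799, 3.06 and 2.31 CPM with DOX. TFF2 rose 2.75-fold, REG4 1.92-fold and SPINK4 1.97-fold. FGF19, an enteric hormone that regulates bile acid synthesis, went the other way, 117, 115 and 111 CPM without DOX and 5.997, 7.73 and 7.83 CPM with DOX. Of 9 tested mucins 2 rose and 3 fell, the falls being those of MUC20, MUC1 (2.87-fold) and MUC3A (1.503-fold).

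Among 18 intestinal transcription factors 7 rose and 4 fell (median log2 0.29). FOXA2 rose 2.71-fold and CREB3L1, a membrane-bound factor of secretory cells, 2.04-fold. VDR, the vitamin D receptor gene, stood at 27.5, 25.6 and 27.3 CPM without DOX and 10.2, 10.7 and 9.68 CPM with DOX and fell 2.64-fold. CDX1 and CDX2, defining factors of the intestine, were below 1 CPM in both groups on average. Of 20 brush border and enterocyte genes 5 rose and 9 fell (median log2 -0.09). VIL1, the villin gene, stood at 93.9, 87.6 and 92.2 CPM without DOX and 19.99, 21.5 and 23.8 CPM with DOX. CDH17, an intestinal cadherin, stood at 1.42, 1.14 and 1.32 CPM without DOX and 8.72, 8.01 and 8.14 CPM with DOX. These 2 moved in opposite directions, each without overlap, and DPP4, a brush border peptidase, rose 1.83-fold. In the CEACAM family of adhesion glycoproteins 4 of 6 tested genes fell, among them CEACAM6 (4.38-fold), CEACAM5 (3.71-fold) and CEACAM1 (1.37-fold). The fourth, CEACAM7, had 14 counts in all without DOX and 0 with DOX, and its groups overlapped (named after its value was seen). The count of falls was 3 with the 6 libraries alone and without DOX-free replicate 1. CEACAM5 and CEACAM6 are close paralogs and the division of reads between them is uncertain. The colon epithelial markers checked against the labelled cell type were detected at 8535 to 9726 CPM in sum without DOX and 4471 to 4962 with DOX. Most of that sum was KRT8, a keratin of simple epithelia, at 5554 CPM on average without DOX and 2872 with DOX. With CDX1 and CDX2 so low, the sum speaks for epithelial cells and not for colon in particular. Of these 11 markers 7 fell and 1 rose.

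Several signalling pathways shifted at the level of ligands, receptors and feedback genes. In the TGF-β superfamily, where ligands act through paired kinase receptors on SMAD proteins, 12 of 23 tested ligand and receptor genes rose and 3 fell (median log2 0.31). TGFBR2, the type II receptor gene, stood at 103, 109.7 and 108 CPM without DOX and 180.0, 191 and 188 CPM with DOX. TGFBR1, the type I receptor gene, stood at 21.7, 18.5 and 23.6 CPM without DOX and 35.8, 30.5 and 33.1 CPM with DOX. Both rose without overlap (1.74-fold and 1.56-fold), and so did the ligand genes TGFB3 (3.101-fold) and GDF11 (1.78-fold), the co-receptor gene ENG (1.696-fold) and the BMP receptor gene BMPR2 (1.67-fold). Of 19 SMADs and feedback genes 9 rose and 1 fell (median log2 0.20; no fall with library totals alone and without DOX-free replicate 1 or DOX replicate 1). SKIL, a SMAD co-repressor that TGF-β induces, stood at 80.5, 78.01 and 91.3 CPM without DOX and 170.1, 128 and 151 CPM with DOX. CCN2, the CTGF gene, stood at 3.31, 4.74 and 3.92 CPM without DOX and 7.45, 7.86 and 8.72 CPM with DOX. TGFBI rose 1.57-fold and SMAD3 1.26-fold. Of 5 BMP targets tested ATOH8 and ID3 rose (ID3 named after its value was seen) and ID2 fell 2.83-fold, and the call of ID3 was lost without DOX-free replicate 1, DOX-free replicate 3 or DOX replicate 2.

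WNT targets and intestinal stem cell genes rose in 11 of 22 and fell in 3 (median log2 0.34). The largest rises were of secreted or cytoplasmic inhibitors of the pathway that are themselves its targets. NKD1, a cytoplasmic antagonist, stood at 0.278, 0.0554 and 0.0552 CPM without DOX and 2.62, 2.299 and 2.19 CPM with DOX. NOTUM, a secreted enzyme that inactivates WNT ligands, stood at 0.167, 0.194 and 0.0828 CPM without DOX and 2.02, 3.01 and 2.55 CPM with DOX. AXIN2, a scaffold of the β-catenin destruction complex, stood at 61.8, 53.3 and 57.2 CPM without DOX and 115, 121 and 126 CPM with DOX. LGR5, the stem cell receptor for R-spondins, stood at 40.5, 36.4 and 40.9 CPM without DOX and 79.5, 70.9 and 80.5 CPM with DOX. All 4 were higher in each DOX library than in any other, the first 2 from near the limit of detection. SOX9 (log2 -0.05, adjusted p = 0.471), RNF43 (log2 -0.02, adjusted p = 0.871) and CD44 (log2 0.02, adjusted p = 0.779) did not pass.

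Notch genes rose in 8 of 19 and fell in 4 (median log2 0.23), with the ligands divided. DLL1 stood at 0.223, 0.222 and 0.359 CPM without DOX and 1.97, 2.07 and 1.903 CPM with DOX. JAG1 stood at 15.8, 13.5 and 16.9 CPM without DOX and 30.01, 31.4 and 31.2 CPM with DOX. JAG2 stood at 22.3, 22.3 and 19.2 CPM without DOX and 9.02, 8.06 and 8.86 CPM with DOX. The first 2 ligands were higher and the third lower, each without overlap. LFNG, a glycosyltransferase that modifies Notch receptors, rose 1.82-fold, and HES4 was 2.11-fold lower. HES1, the common read-out of Notch, did not pass (log2 0.17, adjusted p = 0.0686), though it did with library totals alone and without DOX-free replicate 1 (adjusted p = 0.00947 and 0.0419).

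Of 14 tested Eph receptors and ephrins 3 rose and 7 fell (median log2 -0.25). EPHA1 stood at 41.5, 44.7 and 39.8 CPM without DOX and 4.498, 5.56 and 5.06 CPM with DOX. EPHB3, a crypt base receptor and WNT target, stood at 7.15, 8.03 and 7.15 CPM without DOX and 15.2, 20.8 and 17.5 CPM with DOX. These receptors moved in opposite directions, 8.33-fold lower and 2.399-fold higher. Without DOX-free replicate 3, 1 of the 3 rises passed. Of 10 EGF-family ligands and ERBB receptors 2 rose and 5 fell (median log2 -0.22), with AREG, the amphiregulin gene, 1.95-fold lower and BTC, the betacellulin gene, 1.48-fold higher. The count of falls was 3 without DOX-free replicate 3, without DOX replicate 3 or with scaling by library totals alone. Among 23 genes induced by ERK signalling 10 rose and 7 fell (median log2 0.15). ETV1, an ETS factor, stood at 7.29, 6.31 and 7.34 CPM without DOX and 38.8, 35.5 and 35.1 CPM with DOX. The feedback inhibitors SPRY1 (1.67-fold) and SPRY4 (1.54-fold) rose while the AP-1 genes FOS (1.803-fold) and FOSL1 fell. Of 16 targets of YAP and TAZ, 11 rose and 1 fell (median log2 0.42). AXL, a receptor tyrosine kinase, stood at 7.597, 7.34 and 8.198 CPM without DOX and 21.4, 24.5 and 20.7 CPM with DOX. NT5E, the 5′-nucleotidase CD73, stood at 194, 201 and 198 CPM without DOX and 354, 327 and 338 CPM with DOX. Both groups were apart, and FJX1 was the target that fell (1.82-fold). Of 15 NF-κB and chemokine genes 1 rose and 2 fell, under the background share, with no rise without DOX replicate 1 and 2 with library totals alone. The falls were those of LCN2 (1.85-fold) and TNFAIP2 (1.41-fold).

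Genes of DNA replication all fell, by small and even steps. The list covers origin licensing, the MCM helicase, polymerases, the sliding clamp and nucleotide supply. Of 41 tested genes 41 fell and none rose, against a background of 21.1%, with log2 changes from -1.16 to -0.24 (median -0.71). GINS2, a subunit of the replicative helicase complex, stood at 59.7, 63 and 55.3 CPM without DOX and 24.6, 28.5 and 26.7 CPM with DOX. CDC6, a licensing factor, stood at 112, 111 and 118 CPM without DOX and 51.3, 53.5 and 48.8 CPM with DOX. MCM5, a subunit of the helicase ring, stood at 151, 168 and 145 CPM without DOX and 69.1, 94.8 and 70.1 CPM with DOX. No member's DOX libraries overlapped with the others. The count was 40 with library totals alone and without DOX-free replicate 2 or 3 or DOX replicate 2 or 3. Of 34 tested mitosis genes, 12 fell and none rose (median log2 -0.14). MAD2L1, a spindle checkpoint gene, was 1.36-fold lower, AURKB 1.31-fold and CDK1 1.23-fold. TOP2A (log2 0.09, adjusted p = 0.389) and CCNB2 (log2 -0.01, adjusted p = 0.92) did not pass. The mitosis count was 5 with library totals alone and without DOX replicate 3, and 7 without DOX-free replicate 1. In that list 1 gene rose with library totals alone or no low-count filter and 2 without DOX replicate 2. The difference between the lists was not tested.

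**Figure D4:**
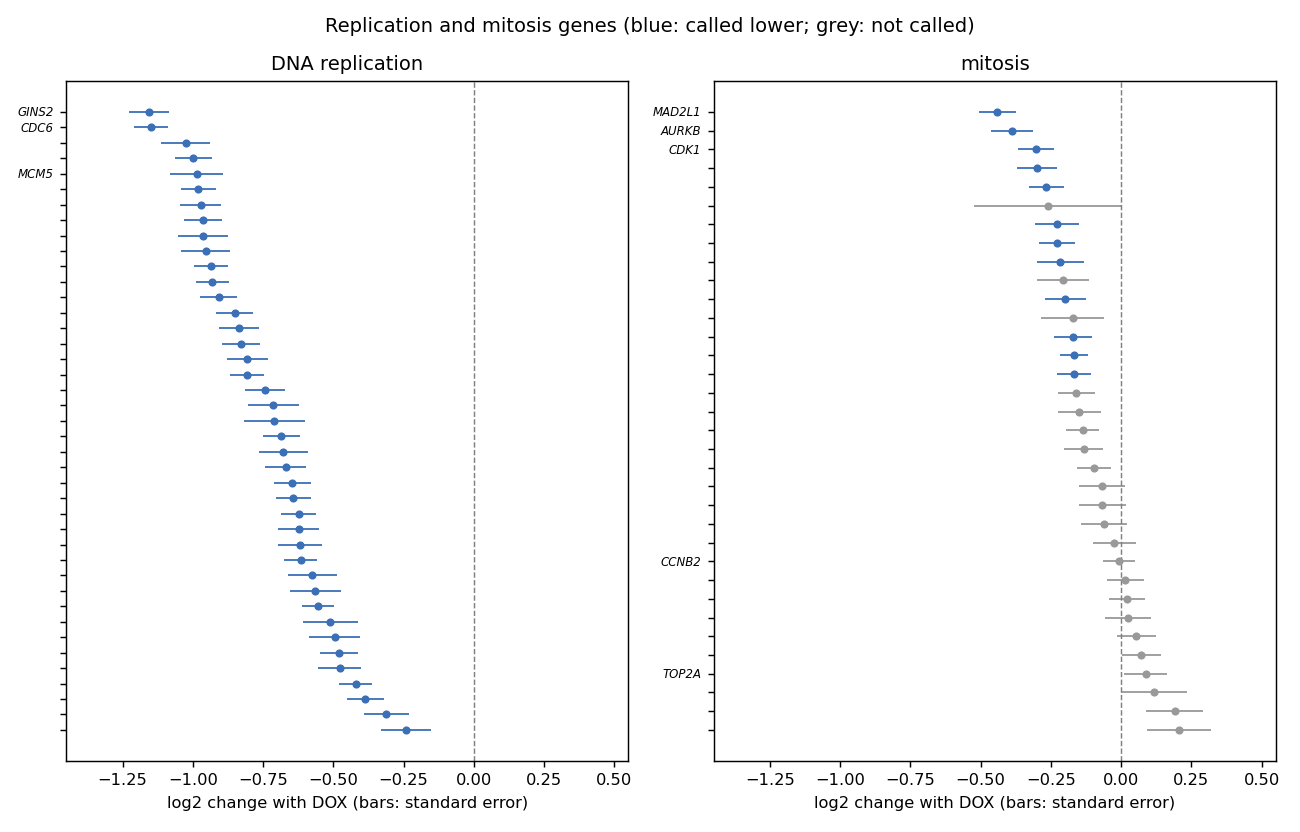
Log2 change with DOX of each tested DNA replication gene (left) and mitosis gene (right), points with bars of 1 standard error and names for the genes given in the text, blue where called lower and grey where not called. All 41 replication genes lie left of 0, from -1.16 to -0.24, while the mitosis genes lie between -0.44 and 0.20.

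Regulators of the G1 phase, which precedes replication, went in both directions. Of 19 tested, 5 rose and 9 fell (median log2 -0.11). E2F1, a transcription factor that drives replication genes, stood at 92.3, 99 and 76.02 CPM without DOX and 45, 50.4 and 41.8 CPM with DOX. CCNE1, the cyclin E1 gene, stood at 31.2, 30.2 and 30.5 CPM without DOX and 17.6, 21.3 and 16.4 CPM with DOX. CDKN1C, the inhibitor p57, stood at 5.46, 4.85 and 4.499 CPM without DOX and 23.7, 23.7 and 20.7 CPM with DOX. The first 2 fell (1.95-fold and 1.66-fold) and CDKN1C rose (4.6-fold), each without overlap. CCND1, the cyclin D1 gene, was 1.47-fold lower. CDKN1A, the p21 gene, did not pass (log2 0.22, adjusted p = 0.338) except without DOX replicate 3 (log2 0.44, adjusted p = 0.0275). Without DOX-free replicate 3 the count of rises was 3.

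Of 28 p53 targets 14 rose and 3 fell (median log2 0.23), with 5 falls without DOX replicate 2. TP53INP1, a p53-induced regulator of autophagy and cell death, stood at 3.48, 2.52 and 4.22 CPM without DOX and 26.7, 19.6 and 26.3 CPM with DOX. BTG2, an antiproliferative gene, stood at 43.1, 43.5 and 43.1 CPM without DOX and 128, 128 and 128 CPM with DOX. CCNG2, an atypical cyclin gene, stood at 51.6, 46.3 and 51.9 CPM without DOX and 121, 106 and 114 CPM with DOX. The groups did not overlap for these genes. AEN, a nuclease gene, was 1.99-fold lower. In the BCL2 family, which controls mitochondrial cell death, 2 of 18 rose and 4 fell, beside background shares of 19.2% and 21.1%. Both rises were of pro-apoptotic BH3-only genes. BMF stood at 13.1, 11.4 and 12.8 CPM without DOX and 65.3, 76.1 and 66.5 CPM with DOX. BBC3, the PUMA gene, rose 1.82-fold. The falls included other pro-apoptotic BH3-only genes, BID (1.27-fold) and BCL2L11 (1.2-fold). Of 12 tested histone genes 8 rose and none fell (median log2 1.12), among them H2BC5 (2.74-fold), H2AC6 (2.46-fold) and H2BC21 (2.41-fold). Copies of histone genes are near-identical, their mRNAs mostly lack the poly(A) tail on which mRNA is commonly purified, and the split of reads between them is uncertain.

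Ribosome biogenesis genes fell nearly without exception. They serve the transcription of ribosomal RNA and its processing in the nucleolus. Of 33 tested genes 32 fell and none rose, with log2 changes from -1.01 to -0.22 (median -0.58). NOP16 stood at 32.8, 33.9 and 30.7 CPM without DOX and 15.6, 15 and 17.6 CPM with DOX. NOLC1, a nucleolar chaperone of small ribonucleoproteins, stood at 372, 383 and 365 CPM without DOX and 200.4, 192 and 197 CPM with DOX. DKC1, which encodes the pseudouridine synthase dyskerin, stood at 426, 405 and 399.6 CPM without DOX and 234, 235 and 233 CPM with DOX. All 3 were lower without overlap. The gene that did not pass, NOP2 (log2 -0.48, adjusted p = 0.126), was counted at only about 1 CPM.

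Lipid and amino acid genes fell as well, while lysosomal genes rose. Of 25 sterol synthesis genes 21 fell and none rose (median log2 -0.46), though 1 rose with library totals alone, with no low-count filter and without DOX replicate 1. MVK, mevalonate kinase, stood at 29.6, 30.3 and 27.2 CPM without DOX and 12.5, 14.1 and 13.2 CPM with DOX. DHCR7, the enzyme of the last step of cholesterol synthesis, stood at 345, 312 and 312 CPM without DOX and 149, 184 and 150.5 CPM with DOX. Both were without overlap. Of 14 fatty acid synthesis genes 8 fell and 1 rose (median log2 -0.32; no rise without DOX-free replicate 2 or DOX replicate 2), FASN 1.65-fold and ELOVL7 3.04-fold lower. Of 30 targets of the stress factor ATF4, 17 fell and 4 rose (median log2 -0.28). SLC7A5, a transporter of large neutral amino acids, stood at 349, 364 and 345 CPM without DOX and 159, 209 and 164 CPM with DOX. PSAT1, of serine synthesis, was 1.56-fold lower. Leaving out DOX-free replicate 2, DOX replicate 1 or DOX replicate 2 gave 2 rises and leaving out DOX-free replicate 3 gave 1.

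Of 31 hypoxia and glycolysis genes 16 fell and 2 rose (median log2 -0.23). CA9, a carbonic anhydrase induced by hypoxia, stood at 25.8, 19.3 and 25.2 CPM without DOX and 9.37, 12 and 9.03 CPM with DOX. HK2, hexokinase 2, fell 2.17-fold. Of 19 unfolded protein response genes 11 fell and 1 rose (median log2 -0.28; no rise without DOX-free replicate 2, DOX replicate 1 or DOX replicate 3, and 2 with library totals alone), with SDF2L1 1.84-fold lower. Lysosomal genes rose in 22 of 35 and fell in 7 (median log2 0.21, background 19.2% higher). SMPD1, acid sphingomyelinase, stood at 3.37, 3.79 and 3.34 CPM without DOX and 7.45, 8.92 and 7.11 CPM with DOX. GAA, acid α-glucosidase, stood at 10.2, 10.2 and 9.14 CPM without DOX and 14.4, 18.2 and 17.4 CPM with DOX. These rises had no overlap. TFEB, a transcription factor that drives lysosomal genes, went the other way, 17.6, 18.3 and 15.3 CPM without DOX and 7.05, 9.75 and 10.1 CPM with DOX. The count of falls in this list was 4 with library totals alone and without DOX-free replicate 2, DOX replicate 1 or DOX replicate 3. Of 31 nuclear-encoded respiratory chain genes 4 fell and none rose (median log2 -0.12), but the count of falls was 13 without DOX replicate 2, 7 with the replicate block, and 1 with the 6 libraries alone or without DOX-free replicate 1, DOX-free replicate 2 or DOX replicate 3. With library totals alone 1 fell and 2 rose. Of 13 mitochondrially encoded mRNAs none was called. There 4 fell with the replicate block, 5 without DOX replicate 3, 1 with the 6 libraries alone and 9 with no low-count filter, and 1 rose with no low-count filter and without DOX replicate 2.

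The counts for interferon-stimulated genes moved with the libraries and settings used. Of 34 tested, 10 rose and none fell (median log2 0.23, background 19.2% higher). Without DOX replicate 2 the counts were 3 and 8 and the median -0.08. IFIT1, an RNA-binding antiviral protein, stood at 103, 128 and 158 CPM without DOX and 158, 263 and 145 CPM with DOX. MX2, an antiviral GTPase, stood at 25.2, 37.4 and 45.4 CPM without DOX and 40.1, 102 and 36.6 CPM with DOX. STAT2, the signal transducer of type I interferon, stood at 52.8, 58.1 and 63.2 CPM without DOX and 92.7, 125 and 95.3 CPM with DOX. DOX replicate 2 was the highest library for all 3. The groups overlapped for IFIT1 and MX2, whose calls were lost without DOX replicate 2 (adjusted p = 0.13 and 0.692), without DOX-free replicate 1 and in the DESeq2 Wald test (adjusted p = 0.0643 and 0.153). That of MX2 was also lost without DOX-free replicate 2 and with the 6 libraries alone (adjusted p = 0.086 and 0.0575). They did not overlap for STAT2. The mean log2 deviation of the list from its group was 0.57 in DOX replicate 2, -0.23 in replicate 1 and -0.34 in replicate 3, and among the DOX-free libraries it ran from -0.22 to 0.23. The count of rises was also 3 without DOX-free replicate 1, 5 without DOX-free replicate 2, 16 without DOX replicate 3, 5 with DESeq2 and 19 with no low-count filter. Of 17 tested MHC class I presentation genes 6 rose and 2 fell (median log2 0.18). Without DOX replicate 2 there were 4 and 6 (median -0.17), and the count of rises was 3 without DOX-free replicate 2 and 4 without DOX-free replicate 1 or 3. Their deviation was 0.39 in DOX replicate 2 and -0.19 in both others. HLA-E, a non-classical class I gene, stood at 128, 129 and 131 CPM without DOX and 195, 250.3 and 202 CPM with DOX, without overlap and highest in DOX replicate 2. Mitochondrially encoded mRNAs deviated by -0.53 in DOX replicate 2 and 0.41 in DOX replicate 3. What set this library apart was not tested.

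**Figure D5:**
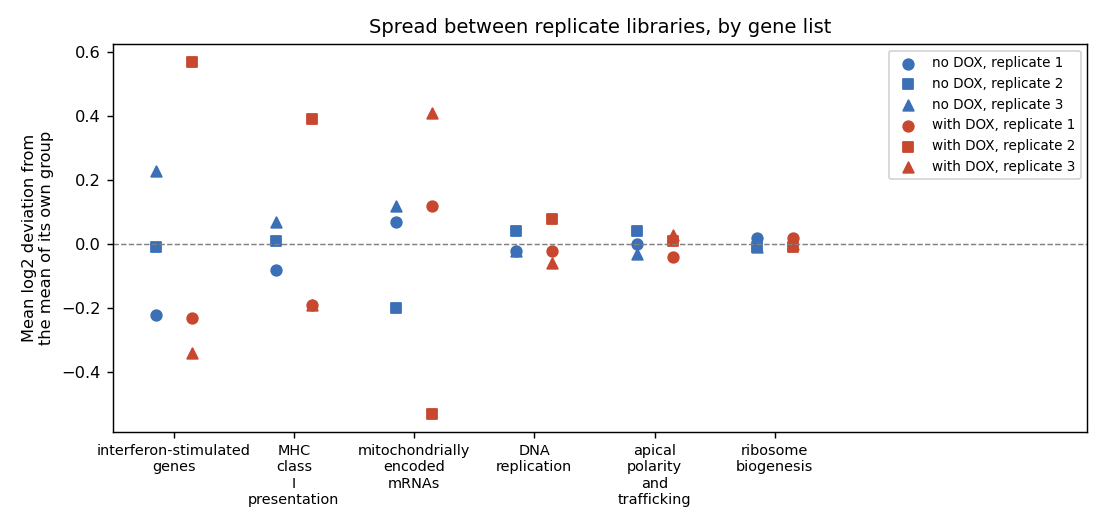
Mean log2 deviation of each library from the mean of its own group, averaged over the tested genes of 6 lists, blue without and red with DOX, with 1 marker shape per replicate number. DOX replicate 2 (red square) stands at 0.57 for interferon-stimulated genes, 0.39 for MHC class I genes and -0.53 for mitochondrially encoded mRNAs, while all 6 libraries lie within 0.1 of their group for DNA replication, apical polarity and ribosome biogenesis genes.

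Markers of other cell types stayed low in sum. The 10 fibroblast markers summed to 1.35 to 1.45 CPM without DOX and 0.939 to 1.44 with DOX, with COL1A2, PDGFRA, THY1 and POSTN at 0. The 10 leukocyte markers summed to 5.26 to 5.76 and 5.70 to 8.66 CPM, with CD2 and MS4A1 at 0. The 10 endothelial markers summed to 2.35 to 3.42 and 10.3 to 11.4 CPM, with TIE1 and EMCN at 0. Most of that rise was 1 gene, TEK, a receptor tyrosine kinase for angiopoietins, which stood at 2.62, 1.69 and 2.595 CPM without DOX and 9.196, 9.98 and 9.54 CPM with DOX.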

How the data were processed

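Gene expression was measured by RNA sequencing on a BGISEQ-500, per the labels' protocols. The authors deposited raw counts (whole numbers) for 60642 gene symbols. The submitters' processing notes name HISAT2 2.2.0 and featureCounts 2.0.0, FastQC 0.11.9, DESeq2 1.34.0 and the build GRCh38.p13. The strand setting and the annotation release were not given in the sources used here, so that overlapping and antisense genes cannot be told apart. Groups came from the labels, with 3 libraries each.

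All 12 libraries of HT-29 iZEB1 entered 1 model by group in edgeR 4.0.16 (R 4.3.3; TMM scaling, filterByExpr at its minimum of 10 counts, then glmQLFit with glmQLFTest). Adjusted p-values (Benjamini-Hochberg over all 16978 genes tested) come from this fit, and 99.93% to 99.95% of each of the 6 libraries' counts lay in tested genes. The typical spread between replicates was 7.82% of a gene's level. CPM use TMM-scaled library sizes. Coordinates are GENCODE 29 on GRCh38, matched by symbol. Promoters and microRNAs are from RefSeq (GRCh38.p14). On simulated data (16628 genes) the test recovered 72% of 1.5-fold, 94% of 2-fold and 100% of 3-fold and 4-fold changes, and 6.63% of its calls were false. There 50 genes were changed by each fold, all drawn from genes above 1 CPM. These rates need not hold for genes under 1 CPM or where as many genes change as here.

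The members, the 54 gene lists and the tests were chosen with earlier results of these data known. Named were ZEB1, CDH1 and VIM, the 15 largest rises and falls under the limits stated above, up to 6 called members of each list in order of size (higher group at 1 CPM or more), and defining members that were not called. Others are said to be named after their values were seen, and a few genes that these rules name are not reported here. Alternatives were DESeq2 size factors, library totals alone, no low-count filter, the DESeq2 1.42.0 Wald test, the 6 libraries alone, a replicate block, each library left out, and other promoter windows. Counting genes with any listed start was added after seeing the data.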

Additional observations from a re-analysis of the deposited data

How the results depend on the processing

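Of the 223 genes looked at singly 202 were called, none was reversed in any of 12 settings and 10 lost the call in at least 1. Most of these genes were named for being called and for the size of their change, so these counts do not speak for all calls. The number of genes called (6853) was 6864 with DESeq2 size factors, 7098 with library totals alone and 6813 with no low-count filter. It was 6863 with the DESeq2 Wald test and 6582 with the 6 libraries alone. These were not all the same genes. Of the 6853 calls, 6830, 6142, 6324, 6740 and 6404 were kept in the same direction in these settings, in that order. With 1 library left out, 5655 to 6178 were kept. None was reversed. Leaving out each library gave 5812 to 7055 calls, 2676 to 3230 higher and 3085 to 3825 lower, and 643 to 708 genes at least 2-fold higher and 632 to 706 at least 2-fold lower. Library totals alone moved the median log2 change of all genes by 0.08 and put 59.5% of the calls on the higher side, against 47.6%. The share of promoters of genes tested with CACCTG (19.2%) was 8.86% in the window from 100 bases before to 50 after the start and 24.7% when any listed start counted. For genes at least 4-fold lower it was then 55% and 62.4%, and for genes at least 4-fold higher 6.15% and 13.2%.

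With the replicate number as a block 6955 genes were called, 6744 of them among the 6853. Deviations of same-numbered libraries correlated weakly (0.01, 0.10 and 0.05), beside -0.11 to 0.07 between libraries of different numbers. So few libraries cannot decide whether same-numbered ones share a batch, which the labels do not say.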

Other observations

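Further gene families, chosen after their values were seen and so given as values alone, also moved largely in a single direction. Connexins form gap junctions between epithelial cells. Of 9 tested connexin genes 5 fell and none rose. GJB1 stood at 26.4, 22.4 and 20.8 CPM without DOX and 3.77, 4.19 and 3.23 CPM with DOX. GJB2, the connexin 26 gene, stood at 73.1, 73.5 and 71.96 CPM without DOX and 29.3, 28.2 and 27.5 CPM with DOX. The groups did not overlap for either gene. All 8 tested genes of the FAM83 family, whose products bind casein kinase 1 and keratin, fell, by a median of -1.27 on the log2 scale. FAM83E stood at 11.8, 10.4 and 10.1 CPM without DOX and 1.25, 1.92 and 1.78 CPM with DOX and FAM83B at 22.1, 21.2 and 21.7 CPM without DOX and 8.07, 6.69 and 8.43 CPM with DOX.

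Glycosyltransferases that cap sugar chains were called in both directions. Of 7 tested fucosyltransferase genes 4 fell and 1 rose. FUT2, which makes the H antigen of secretions, stood at 20.96, 19.6 and 20.3 CPM without DOX and 5.45, 5.103 and 4.14 CPM with DOX, FUT1 at 11.4, 9.75 and 9.496 CPM without DOX and 1.75, 1.64 and 1.25 CPM with DOX and FUT3, which makes Lewis antigens, at 2.37, 2.41 and 2.51 CPM without DOX and 0.1499, 0.202 and 0.193 CPM with DOX. FUT8, which adds the core fucose of N-glycans, was the gene that rose, 1.51-fold. Of 11 tested ST6 and ST3 sialyltransferase genes 4 rose and none fell. HOXB and HOXC genes, homeobox factors of position along the body axis, rose in 14 of 18 and fell in none, with a median log2 change of 0.54. The HOXA and HOXD genes were not counted, so these values do not speak for HOX genes as a whole. HOXB8 stood at 74.1, 70.6 and 66.05 CPM without DOX and 158, 169.9 and 167 CPM with DOX, HOXC11 at 0.946, 1.08 and 0.911 CPM without DOX and 3.47, 3.69 and 3.396 CPM with DOX and HOXB9 at 387, 375 and 402 CPM without DOX and 458, 518 and 460.3 CPM with DOX, each without overlap. By annotated type, 22.1% of 12632 tested protein-coding genes were called higher and 25.2% lower, and 13.4% and 9.11% of 2294 long non-coding RNA genes, which can overlap coding genes on the other strand.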
